A study of Mus musculus with 18 samples.

Results

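Epidermal gamma-delta T cells, called dendritic epidermal T cells in the mouse, live among the keratinocytes and are read here through 9 marker genes, Cd3g, Cd3d, Cd3e, Cd247, Trdc, Tcrg-C1, Il2rb, Thy1 and Klrk1. The genes were taken by symbol from a table of 21011 genes in 18 mice. All 9 were found in it, and all 9 passed the filter on low counts that left 16517 genes for testing. The study deleted parts of the Notch pathway in mouse skin. Tamoxifen, which switches on the Cre recombinase, was injected at 8 weeks of age, and RNA was taken 10 weeks later from the epidermal side of dorsal skin that the labels call telogen, the resting stage of the hair follicle. KR mice (n = 4) carried K14-CreERT and an Rbpj deletion. LR mice (n = 3) carried Lrig1-CreERT2 and an Rbpj deletion. KN1 mice (n = 4) carried K14-CreERT1 and a Notch1 deletion. Controls were matched by batch: KR had 2, LR 3 and KN1 2, and for them the labels give no genotype beyond the word control. K14 drives expression in basal keratinocytes and Lrig1 marks stem cells of the upper hair follicle, so neither driver is directed at T cells. After trypsin the epidermal cells were scraped off and strained, and whatever cells remained in the suspension contributed RNA. Mice are named here by group and by the number in their labels.

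Dendritic epidermal T cells settle in the epidermis around birth, renew there and carry a nearly invariant receptor made of a gamma and a delta chain. The receptor chains bind ligand but have no signalling tail, and the CD3 chains carry the signal into the cell. Cytokines of the interleukin-15 family keep the cells alive, and stressed keratinocytes present ligands to their activating receptors. In bulk RNA, fewer cells of a type and less RNA per cell cannot be told apart.

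Facts of the whole series that bear on the 9 genes are brief. Total counts per library ran from 8076316 to 21216169. In KN1 mice Notch1, the deleted gene, was lower, by a log2 fold change of -0.91 (adjusted p = 0.0251). Rbpj, counted over the whole gene, had -0.47 in KR (adjusted p = 0.135) and -0.66 in LR (adjusted p = 0.0659), and such counts do not resolve a deleted exon. The libraries of KR control 4 and of KN1 control 1 hold 2 sequencing occasions of the same mouse and are called merged below. KR control 6, LR control 5 and KN1 control 7 have a second name in the labels, and this set is called second-named below. Every KR and KN1 control is thus merged or second-named, and no mutant library is. In KR and KN1 the genotype therefore cannot be told apart from the library set. Reads of Xist and of Y-linked genes gave the sex of each mouse: LR control 5 was the 1 female among the LR controls, LR 2 and LR 3 were female and LR 1 male, and each KR and KN1 group held as many females as males.

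The CD3 genes are shown first because 2 of them, Cd3g and Cd3d, gave the clearest differences of this gene set and lie side by side. Cd3g (chromosome 9, 44969572 to 44980431, minus strand, GRCm38, the assembly also called mm10) and Cd3d (chromosome 9, 44981786 to 44987339, plus strand) point away from each other with 1355 bases between their starts. Cd3e (chromosome 9, 44998740 to 45009627, minus strand) lies 11401 bases beyond the end of Cd3d. Cd247, the zeta chain gene, stands apart (chromosome 1, 165788681 to 165877277, plus strand). Of the 9 genes, 5 had a promoter entry in RefSeq (GRCm38.p6), and 4 of these windows are printed so that the neighbours can be set against Cd247, the receptor-complex gene that differed least in KN1. Each is the 250 bases before the start annotated in RefSeq, 5′ to 3′ on the strand of the gene: chr9:44980432-44980681 on the minus strand for Cd3g, chr9:44981536-44981785 on the plus strand for Cd3d, chr9:45009612-45009861 on the minus strand for Cd3e and chr1:165788431-165788680 on the plus strand for Cd247. RefSeq starts Cd3e inside the gene as GENCODE draws it, so the last bases of that window overlap the GENCODE gene. Capitals mark matches, on either strand, to TGGGAA (bound by RBPJ), AGGAAG (bound by ETS factors), AGATAA (bound by GATA factors) and TGTGGT (bound by RUNX factors), and no 2 matches in the printed windows overlap.
Cd3g: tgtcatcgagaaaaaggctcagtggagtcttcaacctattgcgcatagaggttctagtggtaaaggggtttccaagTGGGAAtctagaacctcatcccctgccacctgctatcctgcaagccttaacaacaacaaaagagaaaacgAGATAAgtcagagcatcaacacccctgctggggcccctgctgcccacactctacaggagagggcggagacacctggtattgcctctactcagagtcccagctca
Cd3d: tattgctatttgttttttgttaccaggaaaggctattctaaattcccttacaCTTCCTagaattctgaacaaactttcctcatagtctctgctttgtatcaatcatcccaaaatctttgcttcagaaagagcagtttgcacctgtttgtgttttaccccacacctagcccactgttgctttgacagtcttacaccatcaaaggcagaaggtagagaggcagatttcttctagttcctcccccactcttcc
Cd3e: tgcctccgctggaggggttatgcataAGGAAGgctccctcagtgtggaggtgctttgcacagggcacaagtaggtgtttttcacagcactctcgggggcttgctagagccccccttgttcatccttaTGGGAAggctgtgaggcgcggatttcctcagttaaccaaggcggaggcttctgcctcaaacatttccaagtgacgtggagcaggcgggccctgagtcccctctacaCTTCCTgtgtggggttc
Cd247: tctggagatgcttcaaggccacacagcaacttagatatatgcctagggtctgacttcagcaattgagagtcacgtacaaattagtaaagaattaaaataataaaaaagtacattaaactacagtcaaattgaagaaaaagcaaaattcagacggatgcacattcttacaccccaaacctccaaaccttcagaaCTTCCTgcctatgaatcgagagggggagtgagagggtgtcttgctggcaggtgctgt

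The letters TGGGAA occurred 1 time in the Cd3g window and 1 time in the Cd3e window, and not in those of Cd3d, Cd247 or Klrk1. Of all 32536 RefSeq windows of this length, 21.6% held them. AGGAAG or its complement occurred 1 time in Cd3d, 2 times in Cd3e and 1 time in Cd247, and 29.6% of all windows held it. AGATAA occurred 1 time, in Cd3g, against 9.97% of all windows. TGTGGT was in none of the printed windows, was in that of Klrk1, and was in 14% of all windows. These matches describe the letters only.

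Levels between genes were compared as CPM (counts scaled to a common library size) per kilobase of annotated exon, over the 7 controls. Thy1, a surface protein also made by fibroblasts and other stromal cells, had the highest level at 23.3 ± 7.32 CPM per kilobase (SD, n = 7). Cd3g (7.38 ± 4.04) and Tcrg-C1 (7.22 ± 3.75), the gamma-chain constant segment, came next and did not differ beyond their spread. Trdc, the delta-chain constant segment (4.33 ± 2.28), Cd3e (4.03 ± 2.22), Il2rb (3.59 ± 1.49), Cd247 (2.88 ± 0.826) and Cd3d (2.52 ± 1.72 CPM per kilobase) followed, each within the spread of its neighbours. Klrk1, which encodes the activating receptor NKG2D, was lowest at 0.352 ± 0.167 CPM per kilobase, with 14 to 65 reads per control library. The spread over controls was wide for the receptor complex. The summed CPM of Cd3g, Cd3d, Cd3e, Cd247, Trdc and Tcrg-C1 ran over the 7 controls from 51.0 in KR control 6 to 150 in KN1 control 1, a ratio of 2.94. All 9 markers had reads in every library. Of the 9, only Trdc and Tcrg-C1 encode chains of the gamma-delta receptor itself. The CD3 genes are shared with other T cells, so reads in all 9 do not by themselves show gamma-delta cells in each mouse.

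**Figure D1:**
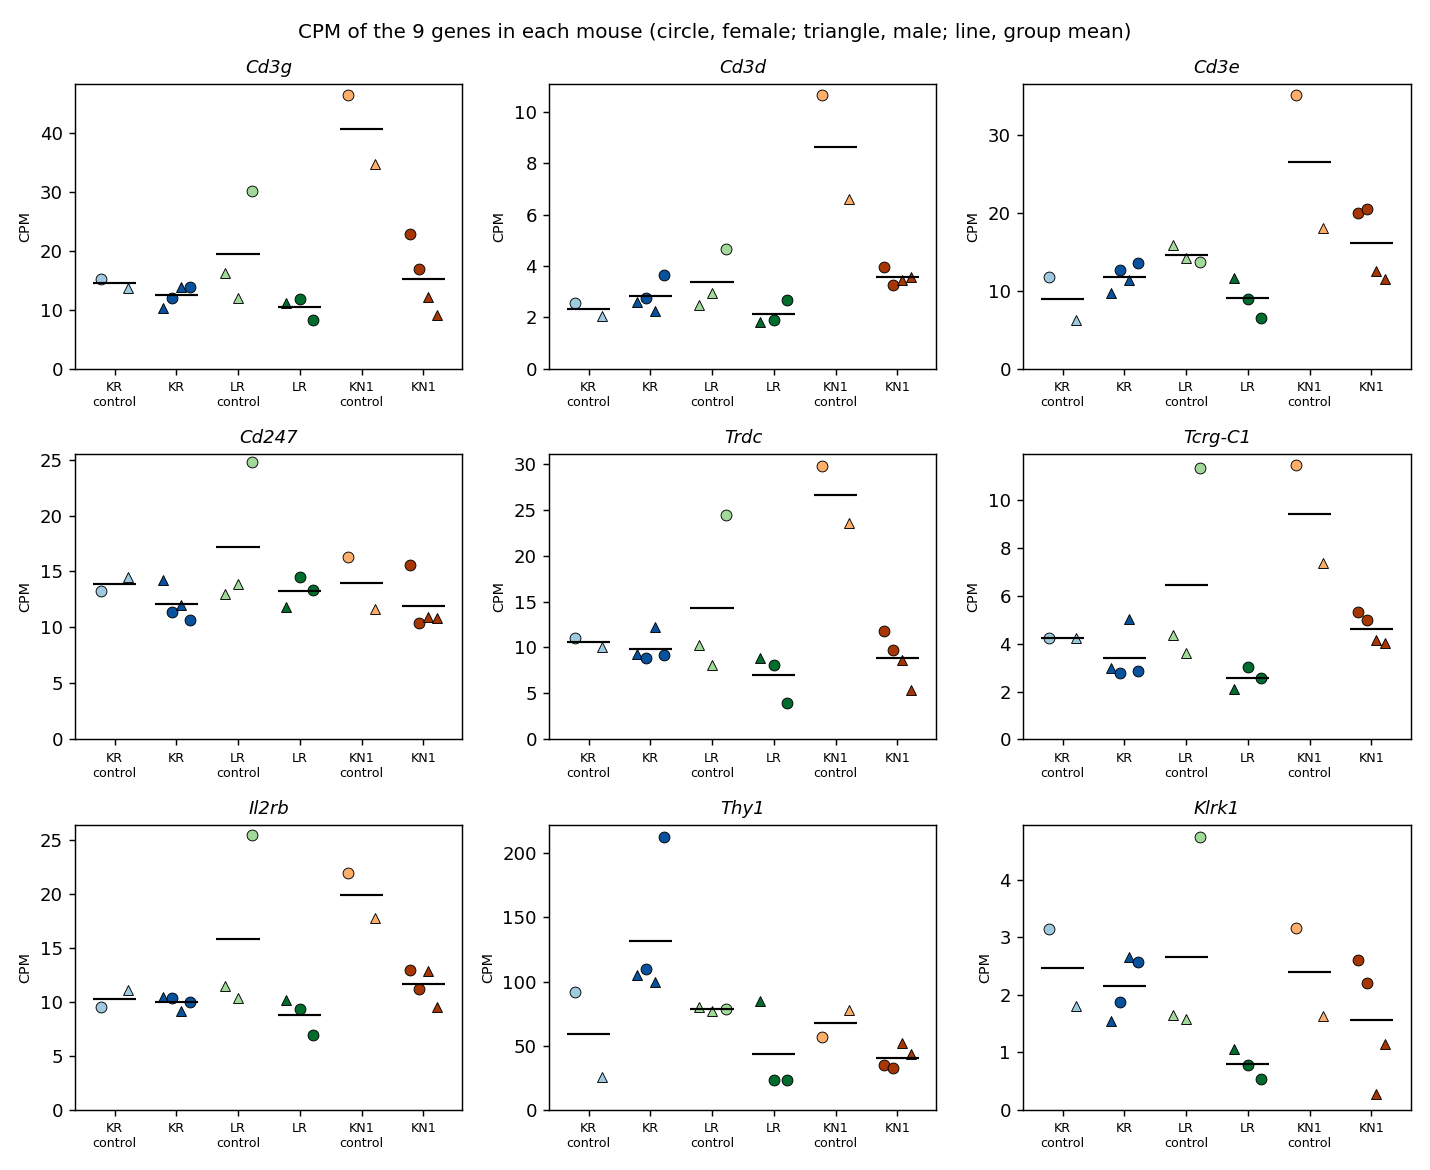
CPM of each of the 9 genes in each of the 18 mice, 1 panel per gene with its own axis from 0; circles are females, triangles males and lines group means. The 2 KN1 controls lie above all 4 KN1 mice for Cd3g, Cd3d, Trdc, Tcrg-C1, Il2rb and Thy1, and LR control 5 stands above the other LR controls for 7 of the 9 genes.

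Deletion of Notch1 with K14-CreERT1 was accompanied by lower Cd3g, Cd3d and Trdc. These 3 of the 9 genes fell at an adjusted p under 0.05, where 1.97% of all 16517 genes tested were called in KN1. None rose. All 9 log2 fold changes were negative, with a median of -0.77, and the median over all genes tested was 0.02. For 6 of the 9 genes every KN1 mouse lay below both controls, an arrangement found for 14.3% of all genes tested. At an unadjusted p under 0.05 there were 6 of 9 genes, against 18.5% of all genes. Both KN1 controls are merged or second-named and no KN1 mouse is, so genotype and library set cannot be told apart here.

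Trdc, the delta chain segment, had the largest estimate of the 9. It was at 29.8 and 23.5 CPM in KN1 controls 1 and 7 and at 11.8, 9.72, 8.58 and 5.40 CPM in KN1 1, 2, 3 and 4. Every mutant was at or below 11.8 CPM and the groups were far apart. The log2 fold change of Trdc was -1.59 ± 0.36 (SE, 95% interval -2.35 to -0.83, adjusted p = 0.0343), a level 3.01-fold lower. Tcrg-C1 was at 11.5 and 7.38 CPM in the controls and at 5.32, 4.98, 4.15 and 4.02 CPM in the mutants. Its groups did not overlap either, but its log2 fold change of -1.04 ± 0.36 did not pass the test (adjusted p = 0.141). Tcrg-C1 (chromosome 13, 19214103 to 19217024, plus strand) has a closely similar copy in Tcrg-C2, so its counts depend on how shared reads were assigned.

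Of the CD3 chains, Cd3g encodes the gamma chain, which pairs with the epsilon chain. It was at 46.5 and 34.8 CPM in the KN1 controls and at 22.9, 16.9, 12.2 and 9.19 CPM in KN1 1 to 4. The mutants all lay below the lower control, with the 2 females (KN1 1 and 2) above the 2 males. Cd3g fell by 1.41 on the log2 scale (SE 0.32, 95% interval -2.08 to -0.75, adjusted p = 0.0317). Cd3d, the delta chain gene, was at 10.7 and 6.62 CPM in the controls and between 3.24 and 3.96 CPM in the mutants. The 4 mutants were close together, and the difference was -1.29 ± 0.29 on the log2 scale (95% interval -1.90 to -0.68, adjusted p = 0.0317). Cd3e, the epsilon chain gene shared by all CD3 dimers, was at 35.2 and 18.01 CPM in the controls and at 20.0, 20.5, 12.6 and 11.5 CPM in the mutants. Here the groups overlapped, since KN1 1 and 2 exceeded KN1 control 7, and the log2 fold change of -0.73 ± 0.30 had an adjusted p of 0.200. Cd247, whose zeta chain carries most of the signalling motifs, was at 16.3 and 11.6 CPM in the controls and at 15.6, 10.4, 10.9 and 10.8 CPM in the mutants. These values overlapped, and the log2 fold change of -0.23 had a 95% interval from -0.75 to 0.29. Within the CD3 complex the estimates thus ran from -0.23 for Cd247 to -1.41 for Cd3g, and differences between genes were not tested.

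Among the other 3 genes, Il2rb encodes the receptor chain shared by interleukin-2 and interleukin-15. It was at 21.97 and 17.8 CPM in the KN1 controls and between 9.54 and 13.0 CPM in the mutants. The groups were apart, but the log2 fold change of -0.77 ± 0.27 did not pass (adjusted p = 0.144). Thy1 was at 57.1 and 77.7 CPM in the controls and at 35.02, 32.5, 51.8 and 43.5 CPM in the mutants, with no overlap and a log2 difference of -0.73 ± 0.52 (adjusted p = 0.485). Klrk1 was at 3.16 and 1.63 CPM in the controls and at 2.60, 2.20, 0.277 and 1.15 CPM in the mutants, and the groups overlapped. KN1 3 held 2 Klrk1 reads, so the level there is known only within its counting error.

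The KN1 calls depended on single mice. No member was called without KN1 control 1, without KN1 control 7, or without KN1 2, 3 or 4. The 3 calls held without KN1 1, and 5 members were called without LR control 5, which is in the shared estimate of spread. With the second-named share as a covariate 0 were called, and with only KN1 mice and their own controls in the fit 0 were called.

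**Figure D2:**
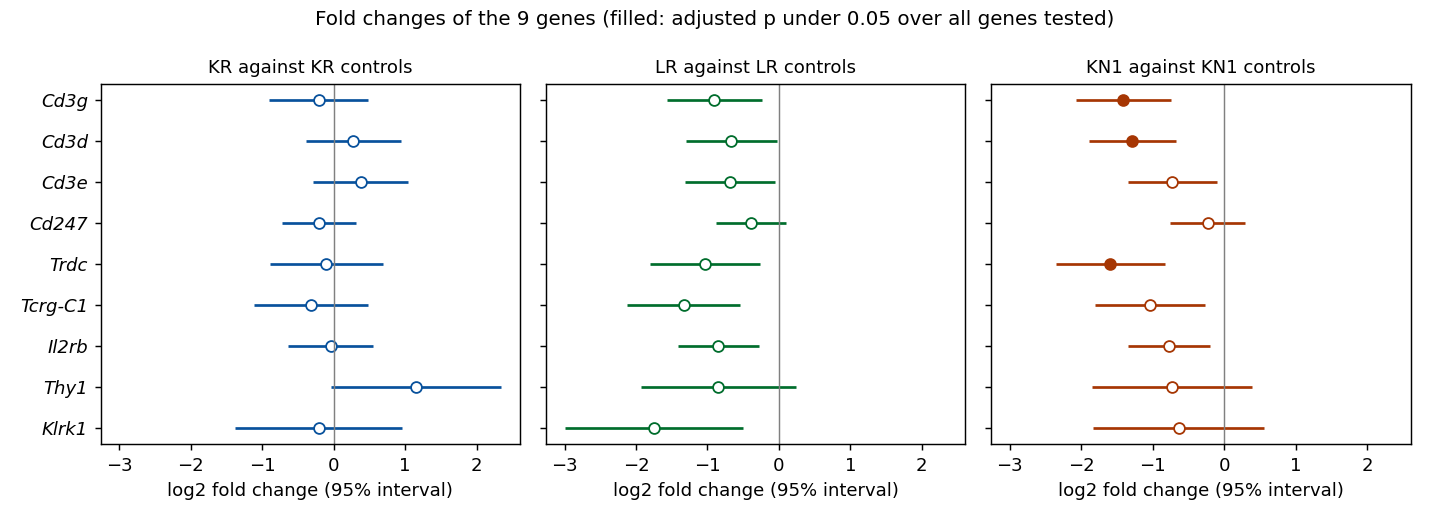
Log2 fold changes of the 9 genes with 95% intervals in KR, LR and KN1, each against its own controls; filled points passed the test over all genes. The 3 filled points are Cd3g (-1.41), Cd3d (-1.29) and Trdc (-1.59) in KN1, all 9 points lie below 0 in LR and in KN1, and 6 of 9 do in KR.

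Deletion of Rbpj with Lrig1-CreERT2 gave lower values for all 9 genes, and none passed the test. The call rate over all genes was 1.12% in LR. The median log2 fold change of the 9 was -0.85, against 0.00 over all genes tested. At an unadjusted p under 0.05 there were 7 of the 9, against 15.5% of all genes, and DESeq2 called 1 (Tcrg-C1). For Cd3g, Cd3e, Tcrg-C1, Il2rb and Klrk1 every LR mouse lay below every control, which was so for 9.29% of all genes.

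Tcrg-C1 had the smallest adjusted p of the 9 in LR, 0.0910. It was at 4.37, 3.62 and 11.4 CPM in LR controls 2, 3 and 5 and at 2.11, 3.02 and 2.59 CPM in LR 1, 2 and 3, a log2 fold change of -1.33 ± 0.37 (95% interval -2.12 to -0.55). Trdc was at 10.3, 8.13 and 24.4 CPM in the controls and at 8.82, 8.11 and 3.99 CPM in the mutants (difference -1.04 ± 0.36, adjusted p = 0.173). Control 5 stood above the other controls in both genes, and for Trdc the remaining 2 controls were near LR 1 and LR 2. Cd3g showed the same arrangement, with 16.3, 12.0 and 30.1 CPM in the controls and 11.1, 11.9 and 8.29 CPM in the mutants (log2 fold change -0.90 ± 0.32, adjusted p = 0.174). Cd3d was at 2.48, 2.94 and 4.65 CPM against 1.82, 1.90 and 2.69 CPM, and Cd247 at 13.0, 13.9 and 24.8 CPM against 11.8, 14.5 and 13.4 CPM. Both overlapped between the groups.

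Cd3e was the exception among the CD3 genes in LR, since control 5 was the lowest of its 3 controls. They were at 15.8, 14.2 and 13.7 CPM, and LR 1, 2 and 3 were at 11.6, 8.97 and 6.57 CPM. The log2 fold change was -0.68 ± 0.30 (adjusted p = 0.277) and stayed at -0.73 without control 5. Il2rb was at 11.5, 10.4 and 25.5 CPM in the controls against 10.2, 9.31 and 6.89 CPM, a log2 difference of -0.85 ± 0.27 (adjusted p = 0.136). Klrk1 was at 1.66, 1.58 and 4.74 CPM against 1.05, 0.776 and 0.539 CPM, the largest log2 fold change of the 9 in LR at -1.75 ± 0.59 (adjusted p = 0.161), and rests on 5 to 11 reads in the LR mice. Thy1 was at 80.3, 76.8 and 78.4 CPM in the controls, while LR 1 was at 84.9 CPM and LR 2 and LR 3 were at 23.2 and 22.9 CPM. The mutants thus split, with 1 among the controls and 2 far below them.

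Without LR control 5 the log2 fold changes in LR were -0.63 for Tcrg-C1, -0.40 for Trdc, -0.44 for Cd3g, -0.35 for Cd3d, -0.03 for Cd247, -0.31 for Il2rb and -1.02 for Klrk1, with an adjusted p of at least 0.392 for each of these. That mouse was the 1 female control of LR and also its 1 second-named control. In the LR controls sex and the second-named set therefore cannot be told apart. With sex as a covariate, a choice made after the data were seen, Cd3g had -0.97 (adjusted p = 0.0879) and Tcrg-C1 -1.40 (adjusted p = 0.0686) in LR.

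Deletion of Rbpj with K14-CreERT left the 9 genes on both sides of 0. None was called in KR, where 1.6% of all genes were, and none reached an unadjusted p of 0.05, against 22.9% of all genes. DESeq2 also called none. Of the 9 log2 fold changes 6 were negative and 3 positive, with a median of -0.10, and the median over all genes was 0.04. No member had every KR mouse below both controls, an arrangement of 19.5% of all genes. The 95% intervals still allow sizeable differences: -0.90 to 0.48 for Cd3g, -0.39 to 0.94 for Cd3d, -0.28 to 1.04 for Cd3e, -0.72 to 0.32 for Cd247, -0.89 to 0.69 for Trdc, -1.12 to 0.49 for Tcrg-C1 and -0.64 to 0.55 for Il2rb.

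Cd3g was at 15.2 and 13.8 CPM in KR controls 4 and 6 and at 10.3, 12.0, 13.9 and 13.9 CPM in KR 1, 3, 4 and 5. Trdc was at 11.01 and 10.1 CPM in the controls and at 9.26, 8.81, 12.2 and 9.17 CPM in the mutants. In both genes KR 4 reached or passed a control, so the groups overlapped. Cd3e was at 11.7 and 6.31 CPM in the controls and between 9.74 and 13.6 CPM in the mutants. Il2rb stayed within a narrow band, from 9.51 to 11.1 CPM in the controls and from 9.11 to 10.4 CPM in the mutants. Klrk1 was at 3.14 and 1.80 CPM in the controls and between 1.54 and 2.66 CPM in the mutants. Thy1 was the 1 member with all KR mice above both controls. The share of all genes with that arrangement was not counted. Thy1 was at 91.9 and 25.8 CPM in the controls and at 105, 109, 99.7 and 213 CPM in the mutants. This is 1.15 ± 0.56 higher on the log2 scale (adjusted p = 0.230). Fibroblast markers, summed over the 12 listed genes in the table, were at 187 and 198 CPM in KR controls 4 and 6 and at 278 to 325 CPM in KR mice. Most reads of that list were from Vim (25451 over all mice) and Col6a1 (10882). Of the 9 tested, 1 was called in KR, Vim, which is made by many cell types (0.86, adjusted p = 0.0351). In LR 1, 2 and 3 the sum was at 141, 173 and 223 CPM, where Thy1 was at 84.9, 23.2 and 22.9 CPM. The part of fibroblasts in the Thy1 values was not tested.

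The difference between mutants was tested for each gene in the same fit. No member passed in any of the 3 pairs of mutants, and over all genes 0.00605% were called for KR against LR, 0% for KR against KN1 and 0.00605% for LR against KN1. The smallest adjusted p was 0.435, for Cd3d, whose change in KR exceeded that in KN1 by 1.56 on the log2 scale (95% interval 0.65 to 2.48). For Trdc the change in KR exceeded that in KN1 by 1.49 (interval 0.37 to 2.61, adjusted p = 0.591). Between LR and KN1 the intervals were -0.44 to 1.46 for Cd3g and -0.54 to 1.65 for Trdc. A call in KN1 and none in KR or LR is therefore not shown to be a difference between the mutants.

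Receptor transcripts were then set against each other within a library, which does not depend on the scaling between libraries. The alpha and beta constant segments Trac, Trbc1 and Trbc2 encode parts of the receptor of conventional alpha-beta T cells, and Trbc1 and Trbc2 share most of their sequence. Over all mice Trbc2 held 3638 reads, Trbc1 672 and Trac 297. The share of Trdc below is thus set mainly against Trbc2, and it is not a ratio of cell numbers. Trdc made up 44.5% of the reads of these 4 genes in KN1 control 1 (95% exact binomial interval 41.8 to 47.2) and 34.0% in KN1 control 7 (30.3 to 37.8). It made up 30.6% (25.6 to 36.1), 23.9% (19.5 to 28.7), 20.7% (16.2 to 25.7) and 17.0% (12.8 to 21.99) in KN1 1, 2, 3 and 4. All 4 mutants lay below both controls, although the interval of KN1 1 overlaps that of control 7. The intervals cover counting error only. Trbc2 was also lower in KN1, at 20.7 to 27.0 CPM against 30.8 and 37.5 CPM, a log2 difference of -0.55 (adjusted p = 0.239).

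In LR the share of Trdc was 26.0%, 25.8% and 24.7%, close to the 29.4% and 26.1% of LR controls 2 and 3, and control 5 stood apart at 58.2% (53.6 to 62.7). In KR the share was 38.0% to 43.9%, above the 33.9% and 30.1% of the controls. There Trdc itself had a log2 fold change of -0.10, and Trbc2, in the denominator of the share, was at 17.8 and 20.1 CPM in the controls and at 7.99 to 12.2 CPM in KR mice (-0.83, adjusted p = 0.0814). Trac was at 3.13 CPM in LR control 5, against 0.709 and 0.678 CPM in LR controls 2 and 3. In KR it overlapped, at 2.03 and 0.631 CPM in the controls and 0.950 to 1.58 CPM in the mutants. Shares were not tested between groups. The summed receptor-complex genes were at 126 ± 33.8 CPM (SD, n = 2) in KN1 controls and 60.4 ± 15.5 CPM (n = 4) in KN1 mice. They were at 75.4 ± 29.4 (n = 3) and 44.4 ± 5.99 CPM (n = 3) in LR controls and LR mice. In KR controls and KR mice they were at 54.5 ± 4.96 (n = 2) and 52.5 ± 3.42 CPM (n = 4). The KN1 controls were thus higher than the other 2 sets of controls on average, and of the 4 KN1 mice, at 44.5 to 79.6 CPM, 3 lay within the 51.0 to 109 CPM of the KR and LR controls and KN1 4 lay below it. Reads of Cd3g per read of Cd247 were 2.86 and 3.00 in the KN1 controls and from 0.621 to 1.62 in the other 16 mice.

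**Figure D3:**
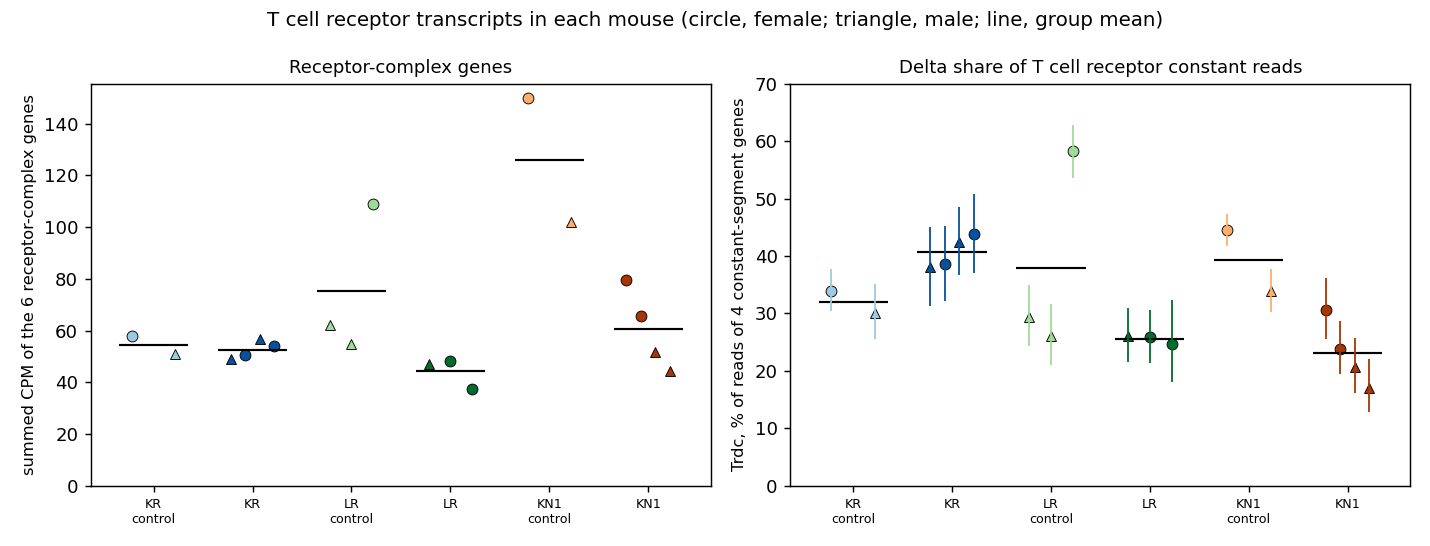
Left, summed CPM of the 6 receptor-complex genes in each mouse; right, Trdc reads as a percent of Trdc, Trac, Trbc1 and Trbc2 reads, with 95% exact binomial intervals as bars; circles are females, triangles males and lines group means. Both KN1 controls lie above all 4 KN1 mice on both measures, and LR control 5 (109 CPM, 58.2%) stands above the other LR controls.

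Across the 18 mice, log2 CPM of Cd3g and Trdc had a Pearson correlation of 0.94, and 0.90 after group means were removed. Cd3g correlated with Tcrg-C1 at 0.89 and with Il2rb at 0.89. With Klrk1 it was 0.60 and with Cd247 0.46. Cd3g with Thy1 gave 0.10, and Cd3e with Cd247 gave 0.06. After group means were removed, Cd3g correlated at 0.75 with Tcrg-C1, Il2rb and Klrk1, at 0.64 with Cd247, at 0.40 with Cd3d and at 0.01 with Thy1. These are descriptions over libraries that share batch, depth and composition. Thy1 followed the other genes weakly, at 0.28 with Trdc, 0.23 with Cd3e, -0.04 with Tcrg-C1, -0.14 with Cd247 and 0.41 with Klrk1. The lowest Thy1 values were in LR 2, LR 3 and KR control 6, where Trdc was at 8.11, 3.99 and 10.1 CPM. LR 3 was also the lowest mouse for Trdc.

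**Figure D4:**
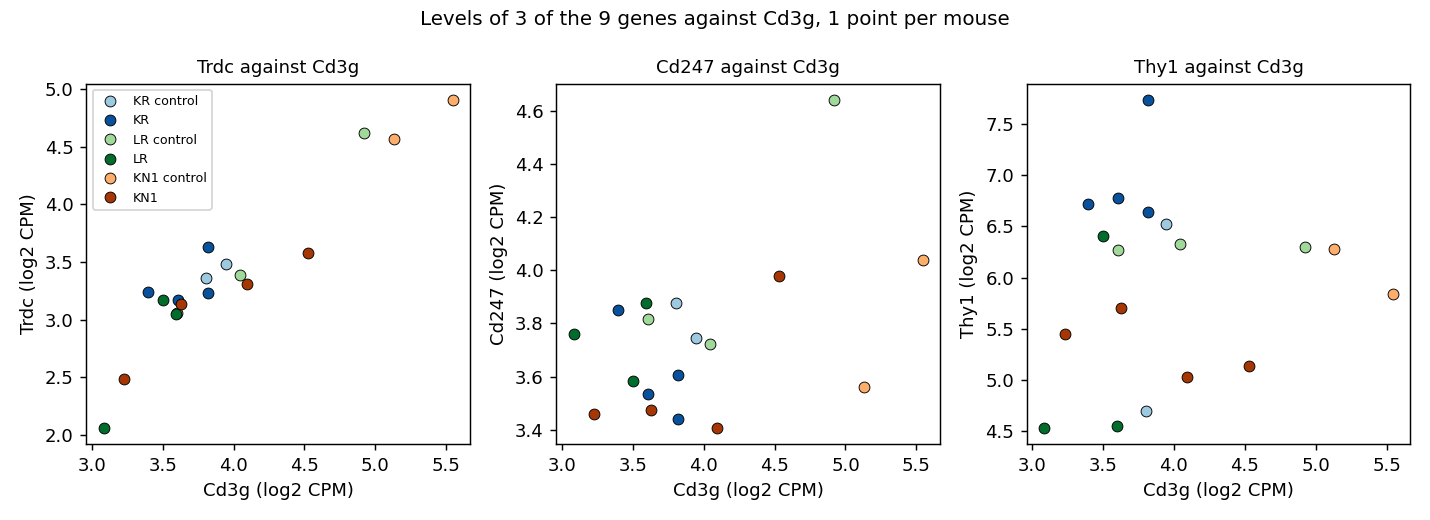
Log2 CPM of Trdc, Cd247 and Thy1 against that of Cd3g, 1 point per mouse coloured by group. Trdc rises with Cd3g over its whole range (r = 0.94), Cd247 does so loosely (r = 0.46) and Thy1 shows little relation to it (r = 0.10).

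The genes outside the 9 whose log2 CPM followed the mean of the 6 receptor-complex genes most closely over the 18 mice, of 15020 with a mean of at least 1 CPM, were Prf1 (r = 0.91), Dusp23 (0.90), Cd7 (0.88), RP23-6A14.10 (0.86), Ctsw (0.84) and Pddc1 (0.83). Prf1 encodes the pore-forming protein of cytotoxic cells, Cd7 a surface protein of T and natural killer cells and Ctsw a protease of cytotoxic lymphocytes. Among the 9 themselves, Il2rb was at 0.92, while Klrk1 ranked 605, Cd247 1372 and Thy1 5524 of all genes ranked. After group means were removed, Klrk1 ranked 274, Cd247 231 and Thy1 7481, while Cd3d, at rank 8 before, was at 1527 and Cd3e, at rank 22 before, was at 1687. Cd247 overlaps Pou2f1 on the opposite strand over 12124 bases, Trdc overlaps the antisense gene Gm43434 over 3437 bases, and Cd3e overlaps the antisense gene Gm48719 over 3557 bases. The sources used here do not say whether counting used strand, so reads from these partners cannot be told apart.

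Other transcripts of these cells were counted by role. Of the other gamma and delta receptor segments, 7 were in the table and 4 were tested. None was called, and all 4 were negative in LR and in KN1, with medians of -0.46 and -0.93. Trdv4, a delta variable segment used by dendritic epidermal T cells, was at 6.78 and 4.88 CPM in the KN1 controls and between 2.08 and 3.46 CPM in KN1 mice, with no overlap (log2 fold change -1.12, adjusted p = 0.119). Tcrg-V5, the gamma variable segment of these cells, was at 1.68 and 1.84 CPM in the KN1 controls and between 0.463 and 1.11 CPM in the mutants (-1.17, adjusted p = 0.283). In LR its log2 difference was -1.68 (adjusted p = 0.169), with 3.04 CPM in control 5.

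Of 23 tested genes just below the receptor, 1 fell in KR and in LR and none in KN1. This was Prkcq, the kinase PKC-theta of the T cell synapse. It was at 6.66 and 9.82 CPM in KR controls and at 3.92, 3.57, 4.09 and 2.86 CPM in KR mice (log2 fold change -1.18 ± 0.29, adjusted p = 0.0479). In LR it was at 6.15, 6.10 and 7.24 CPM in the controls and at 1.25, 1.29 and 1.62 CPM in the mutants (-2.23 ± 0.31, adjusted p = 0.00120). In KN1 it was at 4.69 and 6.73 CPM in the controls and at 4.33, 9.61, 5.12 and 6.20 CPM in the mutants (0.16, adjusted p = 0.815). Its change in LR differed from that in KN1 by -2.39 (adjusted p = 0.0666) and that in KR from that in KN1 by -1.35 (adjusted p = 0.494), and neither difference passed. Cd3g and Trdc had -0.21 and -0.10 in KR, -0.90 and -1.04 in LR and -1.41 and -1.59 in KN1. Prkcq thus did not follow them in KR or KN1, and the bulk counts do not assign it to the gamma-delta cells. Ptprc, the CD45 phosphatase of all white blood cells, was at 22.7 and 19.2 CPM in KN1 controls and between 10.2 and 14.4 CPM in KN1 mice (-0.88, adjusted p = 0.108). Itpkb had -0.88 in KR (adjusted p = 0.0643), -0.81 in LR (0.0965) and -0.30 in KN1 (0.529). Cd5 had positive log2 fold changes, 0.73 in KR (adjusted p = 0.315), 1.24 in LR (0.151) and 0.77 in KN1 (0.365).

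Of 14 tested activating and inhibitory receptors and adaptors, 3 rose in KR, 2 rose in LR and none passed in KN1. Tyrobp, the adaptor DAP12, rose in KR from 3.42 ± 0.762 (n = 2) to 8.20 ± 1.00 CPM (n = 4) (log2 fold change 1.24, adjusted p = 0.0399). Tnfrsf18, the receptor GITR, rose in KR (0.89, adjusted p = 0.0265) and in LR (0.78, adjusted p = 0.0239). Tnfrsf9 rose in KR (2.62, adjusted p = 0.0450) at a level of 1.44 CPM, and Sema4d, a semaphorin of leukocytes, rose in LR (0.69, adjusted p = 0.0451). Of 15 tested cytokine receptor genes 1 passed: Il2rg, the common gamma chain that pairs with Il2rb, rose in KR from 2.74 ± 1.45 (n = 2) to 6.63 ± 1.46 CPM (n = 4) (1.23, adjusted p = 0.0480), while Il2rb had -0.04. These genes are also expressed by Langerhans cells, regulatory T cells or keratinocytes, so the bulk counts do not assign them to the gamma-delta cells. The 6 pathway calls in KR, Ccl27a and Prkcq included, were each lost without KR control 4, KR control 6, KR 1, KR 3 or KR 5 (adjusted p from 0.0562 to 0.467). In LR, Tnfrsf18 was lost without LR control 3, LR control 5, LR 1 or LR 3 (up to 0.113), and Sema4d without any LR mouse or without LR control 2 or 3 (up to 0.172).

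None of 18 tested adhesion and residence genes, 20 transcription factors that act in the T cell lineage and 10 effector genes passed in any mutant. The bulk counts do not assign these genes to the gamma-delta cells. In KN1, 16 of the 18 residence genes had a negative log2 fold change. Prf1, an effector, was at 16.3 CPM in KN1 controls and 9.24 CPM in KN1 mice (-0.82, adjusted p = 0.226). Other effectors were higher in KR without passing. Tnf was at 1.30 and 0.811 CPM in the KR controls and at 3.06 to 5.58 CPM in KR mice. Gzmc was at 1.88 and 2.52 CPM against 3.27 to 6.24 CPM. Of 14 tested keratinocyte ligands and factors, Ccl27a rose in KR (0.92, adjusted p = 0.0420), and Cxcl16, a ligand of the receptor Cxcr6, rose in LR from 82.4 ± 14.4 (n = 3) to 159 ± 20.0 CPM (n = 3) (0.95, adjusted p = 0.00418). Ccl1 rose in LR from 0.176 ± 0.0618 to 6.95 ± 3.25 CPM (5.22, adjusted p = 0.00120). The remaining ligands, H60c and Il15 among them, did not pass in any mutant.

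Markers of other cells moved with some of these differences. The summed level of the 10 alpha-beta T cell genes in the table was 57.5 and 67.0 CPM in the KN1 controls and 38.9 to 49.7 CPM in KN1 mice, with 7 of 8 tested genes negative and none called. The 14 genes of the Langerhans cell list summed to 2871 and 2050 CPM in the KN1 controls and 1496 to 1751 CPM in KN1 mice, with 11 of 14 negative and none called. In LR the Langerhans sum was 920 to 1375 CPM in the controls and 1264 to 1874 CPM in the mutants, and in KR 1660.5 and 1022 CPM against 2030 to 2341 CPM. The listed marker Cd207 held only 4647 reads over all mice, against 83589 for Cd74, 48079 for Epcam and 24273 for Il34. Epcam and Il34 are also made by keratinocytes, so the sum is not that of Langerhans cells alone. In KR Cd207 overlapped, at 30.7 and 10.0 CPM in the controls and 23.7 to 31.1 CPM in the mutants. In KN1 it was at 33.5 and 37.2 CPM against 19.9 to 33.4 CPM. None of the 14 was called in LR, and in KR 1 was, Mfge8, which rose (log2 fold change 1.14, adjusted p = 0.0480). Hair matrix genes, which mark growing follicles, summed to 15.8 and 22.3 CPM in the KN1 controls and 24.1 to 395 CPM in KN1 mice, with 12 of 12 positive and none called. Over all 18 mice that sum ran from 8.94 CPM in LR control 5 to 411 CPM in KR 5, so it was not low in every mouse. Mitochondrial transcripts summed to 9992 and 11573 CPM in the KN1 controls and 5327 to 8458 CPM in KN1 mice, with 13 of 13 genes negative and 3 called lower. In KR they summed to 17070 and 30590.1 CPM in the controls and 8551 to 14345 CPM in the mutants, with 13 of 13 negative and 6 called lower. In LR 13 of 13 were negative and none was called. LR control 5 had 21027 CPM of mitochondrial transcripts, against 7591 and 7655 CPM in LR controls 3 and 2. The mitochondrial gene mt-Co2 was at 70.1 to 180 CPM in the merged and second-named controls. In all other mice it was at 6.33 to 11.5 CPM. Natural killer cells carry Il2rb, Klrk1 and Prf1 too. Ncr1 and Eomes, which define them, had no row in the table, and the list rests on 5 genes of which Rora, widely expressed in skin, made up most of the sum. Of the B cell list, 1 gene was tested, Ighm, the immunoglobulin mu heavy chain gene. It was at 9.02 and 6.95 CPM in the KN1 controls and 3.32 to 5.21 CPM in KN1 mice (-0.99, adjusted p = 0.162), and at 5.60 and 2.97 CPM in the KR controls and 6.04 to 17.1 CPM in KR mice (1.18, adjusted p = 0.0983). Cd79a and Blk were each at 0 in 3 of 18 mice. The part of these cell types and of RNA quality in the results was not tested.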

How the data were processed

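RNA of dorsal skin cells was measured in 18 mice, 1 library per mouse. The authors deposited raw counts, 1 row per gene, without normalization. Per the submitters' processing notes, STAR, HTSeq, DESeq2 and the build mm10 were used; versions, roles and strand use are not given in the sources used here. Samples were grouped by their labels, and the batch is that under the labels' cage tag.

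Mutants were compared with controls of their own batch in edgeR 4.0.16 (glmQLFTest, two-sided, under R 4.3.3) after TMM scaling and filterByExpr (16517 of 21011 genes), with robust dispersions, 6 group means and Benjamini-Hochberg adjustment over all tested genes at 0.05. Groups of 2 controls take their spread from all mice (common biological coefficient of variation 0.225). CPM used TMM factors, and correlations used log2 CPM with a prior count of 2. The fit was tested on simulated data. Each sample is a separate mouse, and no 2 libraries of a group were within sampling noise of each other (chi-square per degree of freedom at least 6.41). Coordinates are from GENCODE M21 and promoters from RefSeq. Total counts ran from 8076316 to 21216169, so 1 CPM corresponds to between 7.22 and 20.7 reads.

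The 9 genes and all gene lists were chosen with earlier results of these data known. Besides the 9, the text names every called gene of the T cell role and keratinocyte ligand lists, Prkcq, and the 6 genes most like the receptor-complex mean. The naming rule also picked from each list up to 4 tested genes with the smallest p, and only some of these are described. Genes outside that rule were chosen after their values were seen. They include Notch1 and Rbpj as the deleted genes, H60c, Il15, Trac, Trbc1, Trbc2, Cd207, Ncr1, Eomes, Rora, Ighm, Cd79a and Blk. Vim, Col6a1, Mfge8, Cd74, Epcam and Il34 are further such genes. Alternatives were DESeq2 1.42.0, RLE factors, other filters, each cohort alone, all 7 controls pooled, a covariate for the second-named share, omission of second-named controls, a replicate block in LR, other prior counts and each mouse left out; a covariate for sex was added after the data were seen.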

Additional observations from a re-analysis of the deposited data

Results flagged for a closer look

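In 18 sets of a gene and a group of 4 mice, 4 had a mouse far from the other 3. Chance gives such a mouse in about 1 in 20 groups. Cd247 was at 15.6 CPM in KN1 1, a female, and at 10.4 to 10.9 CPM in the other KN1 mice. Trdc was at 12.2 CPM in KR 4 and at 8.81 to 9.26 CPM in the other KR mice, and Tcrg-C1 was at 5.01 CPM in the same mouse and at 2.77 to 2.97 CPM in the others. Cd3g was at 13.9 CPM in both KR 4 and KR 5, the highest KR mice for it. Thy1 was at 213 CPM in KR 5 and at 99.7 to 109 CPM in the other KR mice, and Trdc in KR 5 was at 9.17 CPM.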

How the results depend on the processing

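The count of the 9 genes called in KN1 was 3. It was 0 with the second-named share as a covariate, 0 with only KN1 mice and their controls, 0 with all 7 controls pooled, 1 (Cd3d) without the 3 second-named controls, and 0 to 5 with 1 mouse left out. In LR it was 0, and 1 under DESeq2 and with pooled controls (Tcrg-C1) and 1 with the replicate block (Thy1, -1.77). In KR it was 0 under every alternative run. Genes called over the whole table were 325 in KN1, but 19 with the second-named covariate, 41 without second-named controls, 796 under DESeq2, 98 with the cohort alone, 1867 with pooled controls and 2 to 640 with 1 mouse left out. In KR they were 264, but 12, 32, 1076, 672 and 809 in the same order, 531 with sex as a covariate and 5 to 1353 with 1 mouse left out. In LR they were 185, but 536 under DESeq2, 66 with the cohort alone, 1052 with pooled controls, 116 with the replicate block and 60 to 246 with 1 mouse left out. The block used numbers 2 and 3, shared by LR mice and LR controls. Same-numbered mice correlated at 0.07 and -0.08, and values from 1 pair each show no link but cannot exclude one.

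Log2 fold changes that changed sign, none of them past the threshold as reported, were these. With the second-named covariate they were Cd247 0.155 in KN1 and 0.214 in KR, Prf1 0.0139 in KN1, and in KR Cd3e -0.0305, Cd3g 0.256, Il2rb 0.606, Klrk1 0.258, Tcrg-C1 0.359 and Trdc 0.548. With pooled controls they were Cd3d -0.703 and Cd3e -0.474 in KR, and Prkcq -0.0928 and Trbc2 0.0562 in KN1. Without second-named controls they were Cd3e -0.0111 and Il2rb 0.0416 in KR, and with the replicate block Cd247 0.0453 in LR. With 1 mouse left out, Cd247 ran from -0.450 to 0.0342 and Prkcq from -0.114 to 0.428 in KN1, and Cd3e from -0.0110 to 0.907, Il2rb from -0.154 to 0.0419 and Klrk1 from -0.556 to 0.264 in KR. The cause was not tested. Omitting a control in KR or KN1 left 1, assumed to vary like the other groups. Cd3g, Cd3d and Trdc stayed negative in KN1 under all 16 alternatives. Depth limits Klrk1 most.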
